A study of Rattus norvegicus with 8 samples.

Results

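The cytosolic ribosomal proteins were examined in the adrenal glands of neonatal rats. They were taken as the genes whose symbol in the array's annotation begins with Rpl or Rps and a number, or is Rpsa or Rplp0 to Rplp2, without the Rps6k kinases and pseudogenes. A gene was read at its brightest probe set, a probe set being the group of oligonucleotides on the array that reports 1 transcript. This gave 44 genes on 50 probe sets, 30 genes of the large and 14 of the small subunit, of 10411 named genes on 15923 probe sets. A further 34 probe sets list several symbols of which at least 1 is of this family, many of them of pseudogenes or near-identical copies, and no gene was named from them. Rplp1, Rps19, Rps14 and Rpl10 are among the genes that share their probe set with other symbols in this way, and they are not analysed here singly. Sequence shared with processed copies elsewhere in the genome can also reach the probe sets used.

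The rats spent the time from birth to postnatal day 7 in 12% O2 (hypoxic) or in room air (normoxic). Their glands, with the capsule taken off, were pooled at 24 per sample, 4 pools a group, and each pool was read on 1 array with 1 colour. No strain, sex or genotype is given in the sources used here, nor how litters were divided among the pools. Each pool is a sample of its own in the labels, and p-values measure the spread between these pools, which may be technical in part. Intensities carry no absolute unit. In a whole gland, fewer cells of a type and less RNA per cell cannot be told apart.

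A ribosome joins a small subunit, which reads the messenger RNA, to a large subunit, which links the amino acids. Each carries its own set of proteins on ribosomal RNA, and cells make these proteins in matched amounts. Their messenger RNAs are among the most abundant of a cell and begin with a cytosine followed by a tract of pyrimidines (C or T in the gene). Through this start their translation is held back when the kinase complex mTORC1 is inhibited, as it is in oxygen shortage, a control that need not change the amount of messenger RNA an array reads.

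That shared start could be seen in the reference sequence. RefSeq promoter sequences of build GRCr8, running from 250 bases before to 50 after the annotated start, were found for 39 of the 44 genes (37 by gene ID, 2 by symbol). At the annotated start itself, 11 of the 39 (28.2%) had a C followed by at least 4 pyrimidines, against 2.63% of all 33469 promoters. Within 10 bases of the start on either side, 27 of the 39 (69.2%) held such a tract, against 28.9% of all. The windows that follow run from 10 bases before the start to 20 bases from it, 5′ to 3′ on the gene's strand, and capitals mark the tract. The first 6 have it at the start:
Rplp0: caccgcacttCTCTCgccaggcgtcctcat
Rps15: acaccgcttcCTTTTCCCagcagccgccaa
Rpl19: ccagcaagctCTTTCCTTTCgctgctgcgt
Rpl22: gcgcccccctCCCTTTCTgcctcctctgcc
Rpl35a: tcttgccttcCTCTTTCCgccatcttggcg
Rpl37a: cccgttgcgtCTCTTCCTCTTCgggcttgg
Rps24: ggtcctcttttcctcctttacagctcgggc
Rpl24: tagggaggagattctctaccctataaggtg
Rps27l: ttcatttgtcattatttgtggtgtccagag
Rpl7l1: cagatgcattgtgggaagcctttaactcgt
The last 4 are shown because they have the lowest differences, hypoxic minus normoxic, among the members tested below. Rps24 has pyrimidines on both sides of the start, with a T in the first place, Rpl7l1 has a tract within 10 bases of the start, and Rpl24 and Rps27l have no such tract within 10 bases. The Rplp0 window is chr12:46718371-46718400 on the minus strand, that of Rps24 chr16:96507-96536 on the plus strand and that of Rpl24 chr11:58128386-58128415 on the minus strand.

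Other short motifs were searched on both strands of the same promoters. The TATA box sequence TATAAA was in 6 of the 39 (15.4%, all promoters 14.2%). In Rplp0 it began 31 bases before the start, where a TATA box usually lies, and in Rps28 23 bases before it. Both are shown here in capitals with the tract of Rplp0, from 40 bases before the start to 20 bases from it:
Rplp0: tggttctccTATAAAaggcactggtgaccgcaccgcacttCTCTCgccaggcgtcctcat
Rps28: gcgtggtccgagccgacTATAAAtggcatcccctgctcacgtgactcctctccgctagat
The GC box core GGGCGG, which SP1 binds, was in 24 (61.5%, all promoters 33.1%). The ETS family core CCGGAAG was in 9 (23.1%, all promoters 8.75%), and AAGATGGC, part of the YY1 motif, in 4 (10.3%, all promoters 3.17%). On the other strand CCGGAAG reads CTTCCGG and can overlap a pyrimidine tract. AAGATGGC contains ATG, where translation can begin. It lies after the annotated start in Rpl13a and Rps3, and also, on the other strand, in Rpl35a and Rpl21. ACGTG, the core that hypoxia-inducible factors bind, was in 14 (35.9%, all promoters 19.3%). A match is a description of these letters and shows no binding.

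The members were bright. Of the 44 genes, 36 had a mean intensity above 5000 over the 8 pools, while the median over all tested probe sets was 439. Control probe sets for bacterial transcripts had a median intensity of 5.4, and 95% of them lay below 46.7. On each array 36 or 37 of the 44 lay among the 318 brightest probe sets, the 2% that a trimmed mean leaves out at the top. After trimming in this way each array's mean was 500.1, a sign of the authors' scaling. Array medians lay between 228.6 and 249.2. Against the label of adrenal tissue, genes of the inner cortex and of chromaffin cells were bright in all pools, such as Cyp11a1, the first enzyme of steroid synthesis, at 14860 to 23700, and Th, the first enzyme of catecholamine synthesis, at 6420 to 11374.

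A few members were not bright. Rpl3l, a paralogue of Rpl3 known from striated muscle, measured 6.4 to 21.8, within the range of the bacterial controls. Rpl30 measured 34.7 to 76.9 on the only probe set named for it alone. These 2 did not reach the mean intensity of 95.2 needed for testing, which left 42 genes, 28 large and 14 small. Rps27l, a paralogue of Rps27 that p53 is known to induce, had a mean of 245, Rps4y2, a gene of the Rps4 family, one of 253, and Rpl39 one of 711. Intensities of different probe sets do not rank the abundance of their transcripts.

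The first question was whether ribosomal protein genes differ between hypoxic and normoxic glands. None of the 42 passed an adjusted p of 0.05 in limma, where 0.180% of all 11106 tested probe sets did (0.0630% with lower hypoxic values). None had an unadjusted p under 0.05 either (8.64% of all), the smallest being 0.070 (limma, adjusted p = 0.627). The differences were small, with a median of -0.04 on the log2 scale and a range from -0.24 to 0.21, against a median of -0.02 over all tested probe sets. The 95% interval of each of the 42 differences included 0, and for 40 of them it lay wholly within 0.5 log2 (1.41-fold) of 0. The exceptions were the dim genes Rps27l and Rps4y2. The intervals reached a median of 0.25 log2 to either side of the difference. Smaller changes could thus not be told from 0 with 4 pools a group. Passing the adjusted threshold could take more, as Nolc1 below did not pass at a log2 difference of 0.41 (limma, adjusted p = 0.159).

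How many of the small differences lay below 0 depended on single pools, although 11 of the 23 named members kept their sign in every alternative. Of the 42 genes 29 (69.0%) were lower in hypoxic pools, where 54.8% of all tested probe sets were. Without hypoxic pool 2 the number was 13 and the median 0.03, and without normoxic pool 1 the number was 38 and the median -0.10. After quantile normalization, which gives every array the same distribution of values, 27 (64.3%) were lower.

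**Figure D1:**
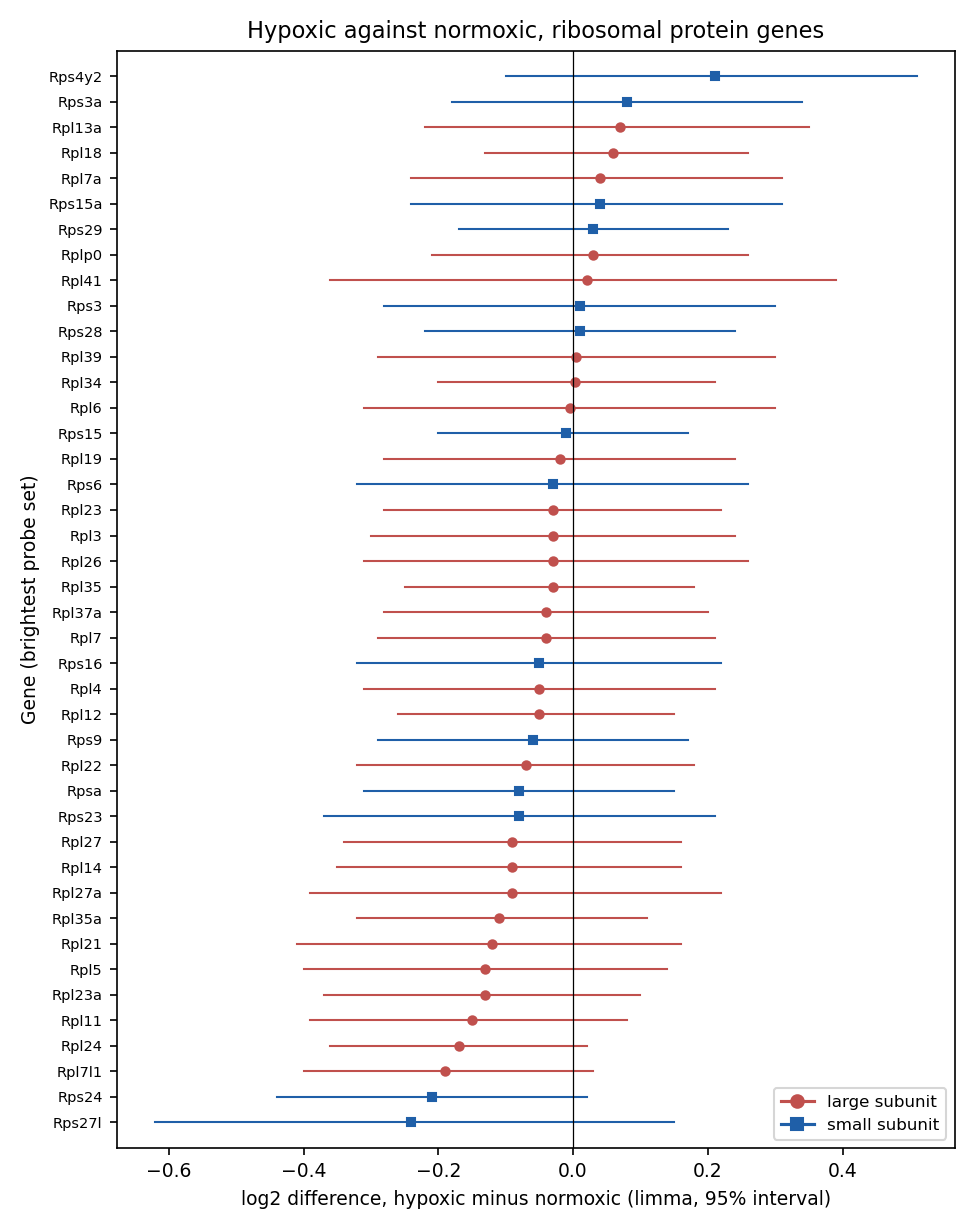
Fitted log2 differences, hypoxic minus normoxic, for the 42 tested ribosomal protein genes at their brightest probe set (points; circles for the large and squares for the small subunit), with 95% intervals from limma over 4 pools a group. Every interval crosses 0, and the differences run from -0.24 for Rps27l to 0.21 for Rps4y2.

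Among large subunit genes, 21 of 28 were lower and 7 higher, with a median of -0.04, and 0 passed. Rpl24, a protein of the large subunit's face towards the small one, was the only member with no overlap between groups. It measured 5069, 5216, 4824.5 and 5329 in normoxic pools 1 to 4 and 4668.5, 4060.1, 4795 and 4689 in hypoxic pools 1 to 4. Every hypoxic value lay below every normoxic one, although hypoxic pool 3 and normoxic pool 3 differed by little. The log2 difference was -0.17 with an interval from -0.36 to 0.02 (limma, adjusted p = 0.638). That 1 of 42 genes (2.38%) had groups that do not overlap stands beside 5.39% of all tested probe sets, 2.64% with lower hypoxic values.

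Rpl7l1, a relative of Rpl7 that acts in ribosome assembly, measured 1546, 1776, 2009 and 1669 in normoxic and 1519, 1633, 1499 and 1466 in hypoxic pools. Normoxic pool 3 was the highest, and normoxic pool 1 lay among the hypoxic values. The log2 difference was -0.19 (interval -0.40 to 0.03; limma, adjusted p = 0.643). On its dimmer probe set it was -0.16 (adjusted p = 0.645), and there the groups did not overlap, with normoxic values from 1180.2 to 1316 and hypoxic values from 1068 to 1163.

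Rpl5 and Rpl11, which with the small ribosomal RNA of the large subunit form a particle that can bind the p53 regulator MDM2, did not pass. Rpl11 measured 8969, 11686, 11319 and 11078 in normoxic and 9618, 8547, 10135 and 10331 in hypoxic pools. Normoxic pool 1 lay among the hypoxic pools and the other normoxic pools lay above all of them. The log2 difference of Rpl11 was -0.15 (interval -0.39 to 0.08; limma, adjusted p = 0.740). Rpl5 measured 12002, 14519, 13826 and 13229.6 in normoxic and 13276, 9720.3, 14555 and 11869 in hypoxic pools, a log2 difference of -0.13 (interval -0.40 to 0.14). Hypoxic pool 3 held the highest value of Rpl5 and hypoxic pool 2 the lowest, so the groups overlapped over most of their range. Without hypoxic pool 2 the difference of Rpl5 was -0.02 and that of Rpl11 -0.10, and over all pools left out in turn they ran from -0.21 to -0.02 and from -0.24 to -0.10. Rpl23, another large subunit protein known to bind MDM2, differed by -0.03, and Rpl26, known to bind p53 messenger RNA, by -0.03.

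Rplp0, the stalk protein on which the acidic P proteins sit and a common reference gene, measured 9556, 11308, 12124 and 11491 in normoxic and 11056, 9909, 12821 and 11592 in hypoxic pools. The groups covered nearly the same range, with a log2 difference of 0.03 (interval -0.21 to 0.26; limma, adjusted p = 0.969). Rpl13a, also a common reference gene, differed by 0.07 (interval -0.22 to 0.35). It measured 10395, 7928, 8717 and 10170.0 in normoxic and 11714, 9276, 8038 and 10027 in hypoxic pools. Normoxic pool 2 and hypoxic pool 3 were the low pools for Rpl13a, where most other members were high in both. Rpl3, a protein near the catalytic centre, differed by -0.03, Rpl22 by -0.07, Rpl23a by -0.13, Rpl6 by -0.0041 and Rpl7a by 0.04, with intervals that reached at least 0.1 on either side of 0. Rpl18 differed by 0.06 (interval -0.13 to 0.26). Rpl41, the shortest ribosomal protein, had the widest spread, with a hypoxic mean of 11716 ± 3128 and a normoxic mean of 11343 ± 1453 (SD, n = 4 pools each). Its hypoxic values ran from 8306 in pool 2 to 15624 in pool 3.

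Among small subunit genes, 8 of 14 were lower and 6 higher, with a median of -0.02 that turned to 0.0045 after quantile normalization, and 0 passed. Rps24, whose loss of function is known in Diamond-Blackfan anaemia, had the lowest p of all members. It measured 11618, 14511, 12678 and 13217 in normoxic and 12372, 9643, 11709.6 and 11260.3 in hypoxic pools. Normoxic pool 1 was low and hypoxic pool 1 was high for their groups, and the other 3 normoxic pools lay above all hypoxic ones. The log2 difference was -0.21 with an interval from -0.44 to 0.02 (limma, adjusted p = 0.627). A much dimmer probe set of Rps24 differed by -0.29 (adjusted p = 0.670).

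Rps6, the protein that S6 kinases phosphorylate, measured 14773, 18009.5, 17204 and 17112 in normoxic and 18562, 12943, 19592 and 15293 in hypoxic pools. Hypoxic pools 1 and 3 lay above all normoxic pools and hypoxic pool 2 below them, and the log2 difference was -0.03 (interval -0.32 to 0.26; limma, adjusted p = 0.971). Rpsa, which also serves as a laminin receptor precursor, differed by -0.08 on its brightest probe set and by -0.06 and -0.13 on the 2 others. Rps3a differed by 0.08 and Rps15a by 0.04. Rps15 was the steadiest member, at 8329 ± 458 in normoxic and 8249 ± 328 in hypoxic pools, a log2 difference of -0.01 (interval -0.20 to 0.17).

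The paralogues stood at the ends of the range. Rps27l measured 323, 298, 227 and 216 in normoxic and 299, 184, 218 and 196 in hypoxic pools, a log2 difference of -0.24 (interval -0.62 to 0.15; limma, adjusted p = 0.767). Pool 1 was the highest of its group in both groups, which overlapped. Rps4y2 measured 222, 229.8, 251 and 229 in normoxic and 306, 262, 212 and 315 in hypoxic pools, a log2 difference of 0.21 (interval -0.10 to 0.51; adjusted p = 0.733). Hypoxic pool 3 lay below all normoxic pools and the other 3 hypoxic pools above them.

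The probe sets with several symbols, read on the same arrays, went the same way as the named ones. Of these 34, 29 (85.3%) had lower values under hypoxia, against 54.8% of all tested probe sets. The median difference was -0.07, and 0 passed (limma, smallest adjusted p = 0.547), with 1 at an unadjusted p under 0.05. Against each probe set's own mean, their medians were -0.10 in normoxic pool 1 and -0.24 in hypoxic pool 2. Whether their sign rests on single pools was not tested. With them added to the 42 genes, an alternative chosen after the data were seen, 58 of 76 were lower and the median was -0.06. Of the 5 genes with more than 1 probe set, 4 had a second one that was tested. In these 4 genes, Rpl7, Rpl7l1, Rps24 and Rpsa, all probe sets had a difference below 0.

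The second question was whether the subunits differ. The median difference was -0.04 for the large and -0.02 for the small subunit. Each gene's log2 value was then set against its own mean over the 8 pools, so that brightness drops out, and the median was taken over the genes of a subunit in each pool. The large subunit medians were -0.09, 0.10, 0.03 and 0.08 in normoxic and 0.11, -0.27, 0.10 and -0.06 in hypoxic pools 1 to 4. The small subunit medians were -0.14, 0.06, 0.05 and 0.05 in normoxic and 0.10, -0.24, 0.04 and -0.03 in hypoxic pools. Both subunits were low in normoxic pool 1 and lowest in hypoxic pool 2. Large minus small ran from -0.03 to 0.06 over the pools, with means of 0.02 ± 0.03 in normoxic and 0.0045 ± 0.04 in hypoxic pools (SD, n = 4), so the groups differed by less than their spread. Relative amounts of the subunits cannot be read from these values, only that they shifted alike from pool to pool.

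**Figure D2:**
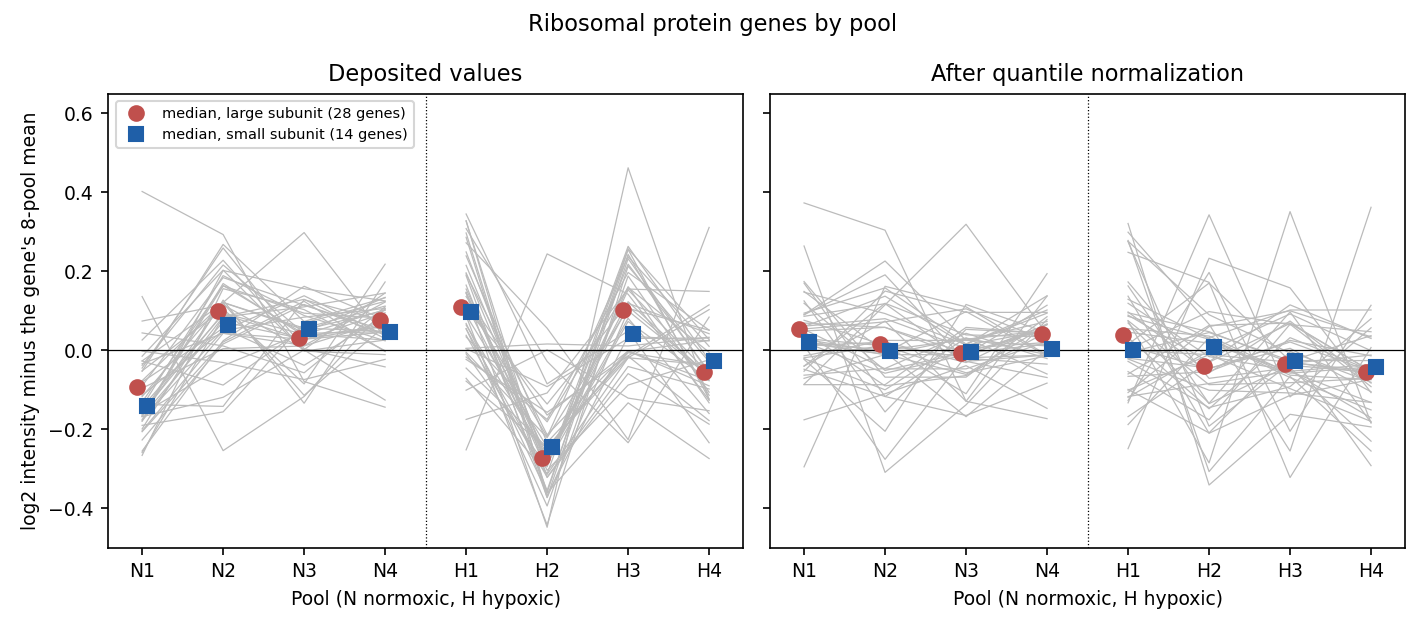
Each grey line is 1 of 42 ribosomal protein genes, as log2 intensity minus the gene's mean over the 8 pools, for normoxic (N1 to N4) and hypoxic pools (H1 to H4); circles and squares are the medians of 28 large and 14 small subunit genes. In the deposited values both medians dip in N1 and lie at -0.27 and -0.24 in H2, and after quantile normalization all medians lie between -0.05 and 0.05.

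The third question was how much the genes vary between pools. The median within-group SD of the 42 genes was 0.172 on the log2 scale, against 0.193 over all tested probe sets. It was also 0.172 over the 74 other probe sets with a mean intensity of at least 8984, a level that most members reach. The member with the widest spread was Rpl41 (SD 0.30), followed by Rps27l (0.28) and Rpl6 (0.23). The narrowest were Rps15 (0.07), Rpl18 (0.09) and Rpl24 (0.09).

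**Figure D3:**
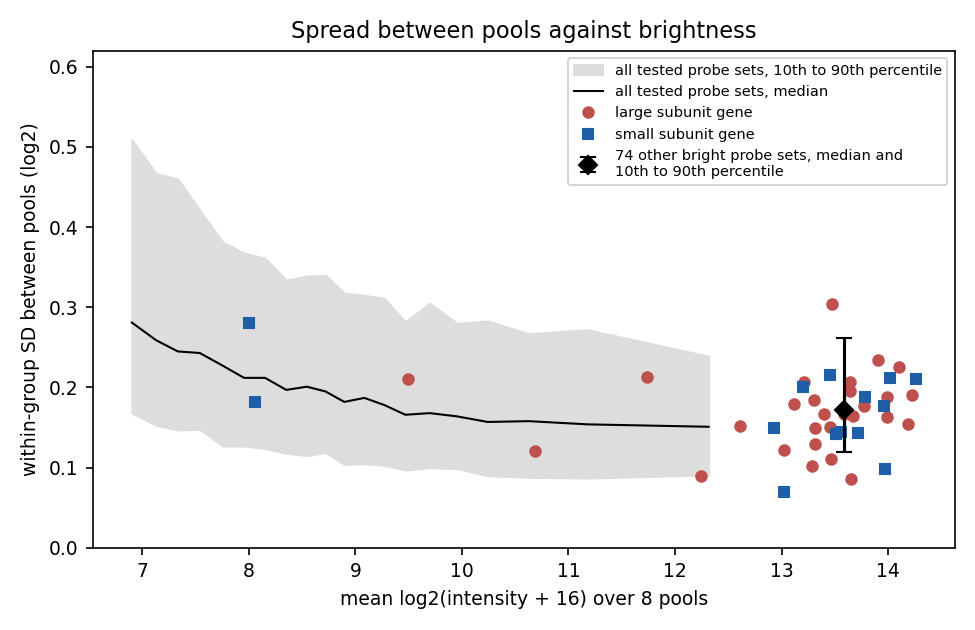
Within-group SD between pools (log2) against mean log2(intensity + 16), for 28 large subunit genes (circles) and 14 small subunit genes (squares), over the median and the 10th to 90th percentile of all 11106 tested probe sets in 20 bins of brightness. The diamond gives the median of 74 other bright probe sets, 0.172, with their 10th to 90th percentile, and most members lie within that range.

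Most of this spread was shared. Hypoxic pool 2 was the lowest hypoxic pool for 35 of the 42 genes and the lowest of all 8 for 33, and normoxic pool 1 was the lowest normoxic pool for 32. With group means removed, the mean correlation between pairs of members over the 8 pools was 0.52, within the large subunit 0.55, within the small subunit 0.44 and between the subunits 0.51. Over all pairs of tested probe sets it was 0.0029. These correlations describe values that share arrays and their scaling. The genes closest to the mean of the other members were Rpl7 and Rpsa (r = 0.99 each), Rpl7a and Rpl23 (0.98) and Rpl27a (0.97). Those that did not follow it included Rpl39 (-0.16), Rpl13a (-0.11), Rpl7l1 (-0.01) and Rps4y2 (-0.01), of which all but Rpl13a were among the dimmer members, and Rps27l (0.25), Rps28 (0.35) and Rps29 (0.36) followed it weakly.

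The 74 other bright probe sets include genes of translation described below, such as Eef1a1 and Rack1. These 74 had a mean pairwise correlation of 0.60, and 0.54 with the members. Their pool medians, -0.19, 0.11, 0.06 and 0.01 in normoxic and 0.12, -0.23, 0.16 and 0.05 in hypoxic pools, dipped in the same 2 pools. Over all tested probe sets the medians of these pools were 0.01 and 0.01. After quantile normalization the mean pairwise correlation was 0.06 among members and 0.01 among the other bright probe sets, the members' median SD was 0.10, and hypoxic pool 2 was lowest of the hypoxic pools for 11 genes. Without hypoxic pool 2 the correlation among members in the deposited values was 0.36.

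Other measures of these pools stood as follows. The 8 tested inner cortex genes had medians of -0.33 in normoxic pool 1 and -0.23 in hypoxic pool 2, and the 12 chromaffin genes -0.31 and 0.08. The 6 adipose genes went opposite ways, with 1.03 and -1.32. All 6 were lower in the hypoxic group and 0 passed, with a summed intensity of 3871 to 12164 in normoxic and 2863 to 8619 in hypoxic pools. Their medians varied widely within both groups, from -0.53 to 1.03 in normoxic and from -1.32 to 0.31 in hypoxic pools. In hypoxic pool 2, the lowest for this list, Ucp1, the defining marker of brown fat, measured 92.3. Each of the 12 chromaffin genes was higher under hypoxia, by 0.20 log2 at the median. Of these, 6 had an unadjusted p under 0.05 in limma and 3 had groups that did not overlap. Only 1 passed, Slc18a2 (log2 0.98; limma, adjusted p = 0.0318). For beta-actin the ratio of the 5′ to the 3′ probe set, which falls as RNA degrades, was 0.413 in normoxic pool 1 and 0.491 in hypoxic pool 2, where the groups had means of 0.607 ± 0.143 and 0.495 ± 0.190 (SD, n = 4). It was lowest in hypoxic pool 1, at 0.249, where most members were high. For hexokinase the same ratio was lowest in the 2 pools where the members dip, at 0.0536 in normoxic pool 1 and 0.0545 in hypoxic pool 2, against 0.119 to 0.396 in the other pools. For GAPDH it was 0.639 and 0.602 in these pools and 0.556 to 0.731 in the others. Their part in the ribosomal protein values was not tested.

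The members were also divided by the pyrimidine tract. The 11 tested genes with the tract at the annotated start had a median difference of -0.02 (7 lower), and the 27 with a promoter but no tract there had one of -0.05 (19 lower). The mean pairwise correlation was 0.52 in each set. Annotated starts can be off by several bases, so the second set holds genes that may carry a tract.

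The last comparison set the ribosomal proteins beside other genes of translation. Rack1, a scaffold protein of the small subunit outside the naming rule, measured 10376 ± 815 in normoxic and 10566 ± 953 in hypoxic pools (SD, n = 4; log2 0.03). Of 13 elongation, termination and nascent chain factors, 6 were higher and 7 lower, with a median of -0.02, and 0 passed limma over all probe sets. Eef1a1, which brings the transfer RNAs to the ribosome and whose messenger RNA also starts with a pyrimidine tract, measured 21029 ± 2097 and 21960 ± 3324 (log2 0.06). Its values followed the members' mean (r = 0.97 with group means removed, 8 pools), and those of Eef1g (0.85) and Eef2 (0.78) did so less closely. Some of the 8 tested inner cortex genes followed it as well, with r = 0.96 for Fdx1, 0.95 for Hsd3b1 and 0.92 for Cyp21a1. The mean pairwise correlation among all 8 was 0.52. Etf1, the release factor, had the lowest p of this list, at 1738 ± 76.7 and 1477 ± 105 (log2 -0.23; limma, adjusted p = 0.479), and its groups did not overlap. Eef1b2 differed by -0.17 and Eef1e1 by -0.12.

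Of 35 initiation factors 21 were higher and 14 lower, with a median of 0.03, and 0 passed. Those with the lowest p were Eif3b (log2 0.33; limma, adjusted p = 0.347), Eif3a (0.22) and Eif3m (-0.19), all subunits of the factor that holds the small subunit ready. Of 61 genes of ribosome assembly and RNA polymerase I, which makes most ribosomal RNA, 35 were higher and 26 lower, with a median of 0.01. None passed, while 9 of the 61 had an unadjusted p under 0.05, 5 of them higher. Over all tested probe sets 8.64% had one. Nolc1, a nucleolar chaperone, measured 1038, 1051, 1057 and 967 in normoxic and 1384, 1328, 1264 and 1503 in hypoxic pools. Every hypoxic value lay well above the normoxic ones, with a log2 difference of 0.41 (interval 0.21 to 0.60; limma, adjusted p = 0.159). Taf1c, a subunit of the selectivity factor of RNA polymerase I, had a log2 difference of -0.44 (642 ± 82.2 and 467 ± 16.9; adjusted p = 0.217). Mrto4, which helps to place the stalk on the large subunit, had one of -0.36 (adjusted p = 0.325).

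Of 34 genes of mTORC1 and S6 kinase control, 16 were higher and 18 lower, with a median of -0.01, and 0 passed. Akt2 (log2 -0.34; limma, adjusted p = 0.395), Ddit4, an inhibitor of mTORC1 that hypoxia is known to induce (-0.36, lower in hypoxic pools; adjusted p = 0.438), and Lamtor5 (0.23; adjusted p = 0.503) had the lowest p. Of 10 genes of the eIF2 alpha kinases and their targets 5 were higher and 5 lower, and 0 passed. Those with the lowest p were Asns, asparagine synthetase (log2 0.32; limma, adjusted p = 0.471), Eif2ak1 (0.22) and Eif2ak4 (-0.23, lower in hypoxic pools). The ribosomes of mitochondria have proteins of their own. Of the 71 genes for them 36 were higher and 35 lower, with a median of 0.01, and 0 passed. Mrpl10 (log2 0.27), Mrps21 (-0.22) and Mrpl13 (-0.24) had the lowest p (limma, adjusted p from 0.503 to 0.547). The mean pairwise correlation with group means removed was 0.10 among them and 0.05 among the assembly genes, against 0.52 among the cytosolic ribosomal proteins, which are far brighter on these arrays.

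**Figure D4:**
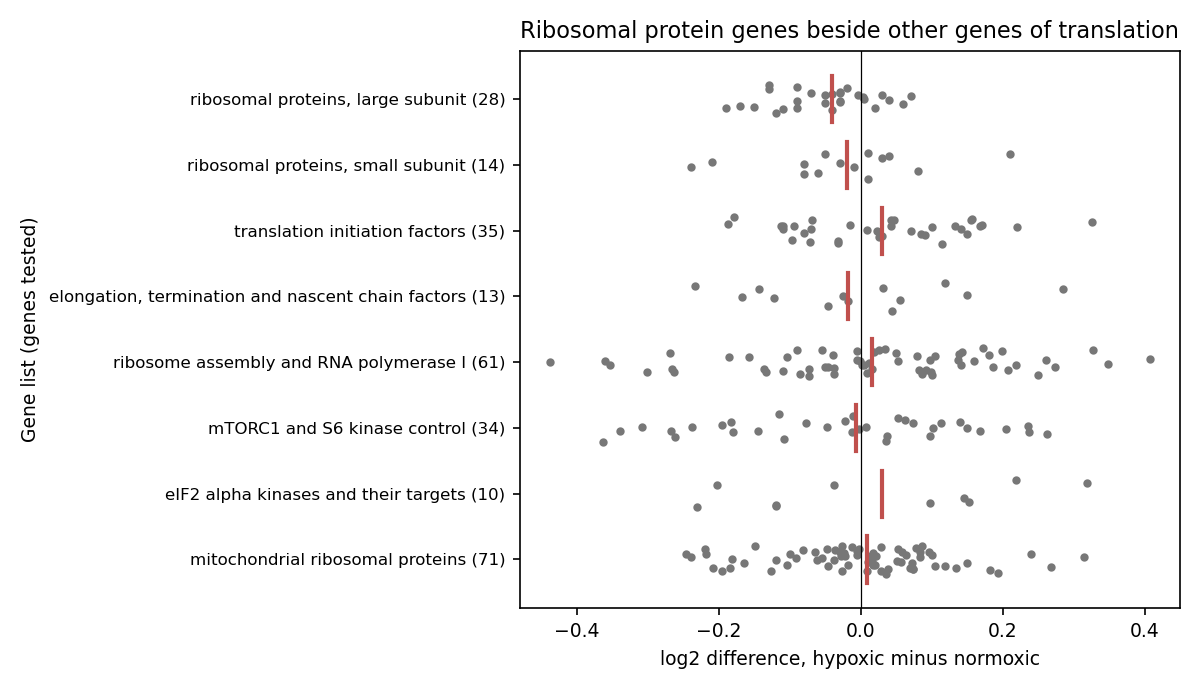
Each point is the log2 difference, hypoxic minus normoxic, of 1 tested gene, by list with the number of genes in parentheses, and the bar is the list's median. All medians lie between -0.04 and 0.03, and the ribosomal protein genes of both subunits span a narrower range than the ribosome assembly genes, which run from -0.44 to 0.41. The assembly list is longer and its genes are mostly dimmer, and both can widen a range.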

How the data were processed

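Per the labels, biotin-labelled cRNA of 8 pools was hybridised to 1-colour arrays. The deposited values are linear intensity values, 1 per probe set, with the same trimmed mean on every array. The sources used here do not name the summary software, and no detection calls were used. Symbols came from the platform annotation, which can be old, and 48 of 50 member probe sets matched a RefSeq gene ID (GRCr8). The log2 scale used throughout is that of intensity + 16, with a floor of 1 on the intensity, and understates changes of dim genes. Array medians lay within 0.117 log2, so no further normalization was used. That check does not cover the bright range of most members, where pool medians of the other bright probe sets ran from -0.23 to 0.16. Probe sets with a mean below the 30th percentile (95.2) were left out. All 11106 others were fitted in R 4.3.3 by limma 3.58.1 with a variance trend, after the script was tested on simulated data. Its p-values are two-sided and were adjusted over all of them (Benjamini-Hochberg, threshold 0.05). Python 3.11.15, pandas 2.3.3 and matplotlib 3.10.9 made tables and plots. No 2 arrays held identical values. Alternatives changed the normalization, offset, filter, trend, probe set choice, replicate block, Gapdh 5′ over 3′ covariate and the pools used.

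Members and lists were chosen with earlier results of these data known. The genes named are those with the 6 highest and 6 lowest differences, the 3 widest and 3 narrowest spreads, no overlap between groups, or a place on a fixed panel of 20 (11 measured alone). To these come the 3 lowest p of each companion list. Others named were chosen after their values were seen.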

Additional observations from a re-analysis of the deposited data

Results flagged for a closer look

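Among 54 groups of 4 pools checked for a pool far from the others, 2 were marked. This is no more than chance gives, at about 1 in 20. In normoxic pool 1 Rpl7a measured 16592.4, while the other normoxic pools lay between 19491.3 and 19946.7. In the same pool the median over small subunit genes was -0.14 (log2, against each gene's mean over the pools), while the others lay between 0.05 and 0.06.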

How the results depend on the processing

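The count of members past the threshold was 0 under every alternative run, and the medians over members and over each subunit moved by less than the spread between pools. With each pool left out in turn, the median ran from -0.10 to 0.03, that of the large subunit from -0.11 to 0.03, that of the small from -0.08 to 0.04 and large minus small from -0.04 to 0.00095. Quantile normalization moved the mean pairwise correlation from 0.52 to 0.06 and the median SD from 0.17 to 0.10. With 1 pool left out these ran from 0.36 to 0.56 and from 0.14 to 0.19. Of 23 named members, 12 turned in sign in some alternative, all with small differences, and 0 passed the threshold in any.

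With 1 pool left out, those that turned ran from -0.03 to 0.15 (Rpl13a), -0.15 to 0.01 (Rpl22), -0.10 to 0.05 (Rpl23), -0.13 to 0.09 (Rpl26), -0.13 to 0.06 (Rpl3), -0.13 to 0.17 (Rpl41), -0.09 to 0.12 (Rpl6), -0.03 to 0.14 (Rpl7a), -0.04 to 0.09 (Rplp0), -0.04 to 0.02 (Rps15), -0.07 to 0.12 (Rps15a) and -0.12 to 0.08 (Rps6). Quantile normalization gave -0.02 for Rpl41, 0.04 for Rpl6 and 0.02 for Rps6. Scaling to a common 75th percentile gave 0.01 for Rpl6. With the Gapdh covariate Rpl26 and Rpl6 were at 0.01 and Rpl41 at -0.09. The causes were not tested.

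The labels do not say whether the replicate numbers pair the pools. Deviations of same-numbered pools correlated at 0.323, 0.0026, 0.186 and -0.0434, and those of pools with unlike numbers at -0.311 to 0.163. These values do not settle whether the pools are paired. With the replicate number as a block, 0 members passed, the median was -0.04, and 18 of all probe sets passed in place of 20. The latter count was 0 without a filter, without a variance trend or with the Gapdh covariate, and ran from 0 to 31 with 1 pool left out. Probe set brightness limits what the dim members Rps27l and Rps4y2 can show.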
